A study of Mus musculus with 9 samples.

Results

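EXOSC3 and DDX1 depletion were set directly against each other in Neuro2A (N2A) cells, a mouse neuroblastoma line that grows as neuron-like cells of the sympathetic lineage. The comparison takes the 3 libraries of cells transfected with EXOSC3 siRNA (siEXOSC3) and the 3 libraries of cells transfected with DDX1 siRNA (siDDX1), 6 of the 9 libraries of the series. The other 3 libraries, transfected with scramble siRNA (scramble), serve for scaling and as a level of reference, and they enter none of the tests below except 1 alternative fit with all 9 libraries. Members were chosen by their labels alone. The labels name the genotypes EXOSC3 knockdown, DDX1 knockdown and WT, and give the treatment of every library as untreated. All 9 libraries come from the same line, transfected with siRNA by a lipid reagent (Lipofectamine), so each group is a transient and partial loss of 1 transcript. Each condition had its own 3 plates. The hours between transfection and harvest are not given in the sources used here, and nor is which EXOSC3 siRNA went into these libraries.

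The RNA exosome is a barrel of subunits that digests and trims RNA from the 3′ end. EXOSC3 sits in its cap, while the nucleases DIS3 and EXOSC10 do the cutting. In the nucleus the complex processes ribosomal RNA precursors and small nucleolar RNAs and removes short-lived noncoding transcripts such as antisense and promoter-upstream RNAs. DDX1 is a DEAD-box protein of the tRNA ligase complex that also takes part in RNA processing and in the handling of RNA-DNA hybrids. The question behind the direct comparison is where the transcripts of cells that lack one protein differ from those of cells that lack the other.

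RNA was depleted of rRNA, and libraries were nondirectional, so reads of a gene and of an antisense partner cannot be told apart. Genes given below by library whose exons overlap an annotated gene on the other strand include Exosc3, Jun, Syt4, Utp14a, Rrp9, Cdc20, Shmt2, 1500012F01Rik and Ints6. Values are FPKM, fragments per kilobase of transcript scaled for library size, for 24318 genes. The 11270 genes with a mean of at least 1 FPKM over the 6 knockdown libraries were tested with limma on log2(FPKM + 1). A log2 difference below is siEXOSC3 minus siDDX1, so a positive value means higher in siEXOSC3, and it understates the change of low genes. A gene is called when its p-value, adjusted by Benjamini-Hochberg over all genes tested, is under 0.05. Library values are given in the order of replicates 1, 2 and 3.

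Both targeted transcripts were low where the label says so. Exosc3 (chr4:45329485-45355604 of mm9, minus strand) stood at 6.84, 7.68 and 6.01 FPKM in siEXOSC3 and at 42.1, 41.1 and 45.4 FPKM in siDDX1. The siDDX1 values lay close to the scramble level of 44.1 ± 1.56 FPKM (SD, n = 3). Its log2 difference was -2.49 (SE 0.0978, limma adjusted p = 5.01e-05). Ddx1 (chr12:13226114-13256019, minus strand) stood at 121, 136 and 124 FPKM in siEXOSC3 and at 28.3, 28.9 and 35.1 FPKM in siDDX1. Here it was the siEXOSC3 libraries that sat at the scramble level of 126 ± 5.18 FPKM (SD, n = 3). The log2 difference of Ddx1 was 2.01 (SE 0.0999, limma adjusted p = 1.63e-04), and both calls held with any 1 library left out and under all 12 alternative settings. An exact permutation test of 3 libraries against 3 cannot go below p = 0.1, which is the value it gave for each.

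In all, 1371 genes differed between the depletions, 12.2% of those tested. Of these, 859 were higher in siEXOSC3 (7.62% of genes tested) and 512 were higher in siDDX1 (4.54%). Each of the 1371 had siEXOSC3 values that did not overlap the siDDX1 values, which 37.4% of all genes tested also showed. An unadjusted p under 0.05 was reached by 3565 genes (31.6%). Differences were larger on the siEXOSC3 side. The median log2 difference was 0.58 among the 859 and -0.42 among the 512, and it was -0.01 over all genes tested. A log2 difference of at least 1 was reached by 72 genes higher in siEXOSC3 (0.639%) and by 7 higher in siDDX1 (0.0621%). Genes higher in siEXOSC3 were the less abundant ones, with a median level of 9.29 FPKM against 14.0 FPKM for all genes tested and 23.4 FPKM for genes higher in siDDX1.

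**Figure D1:**
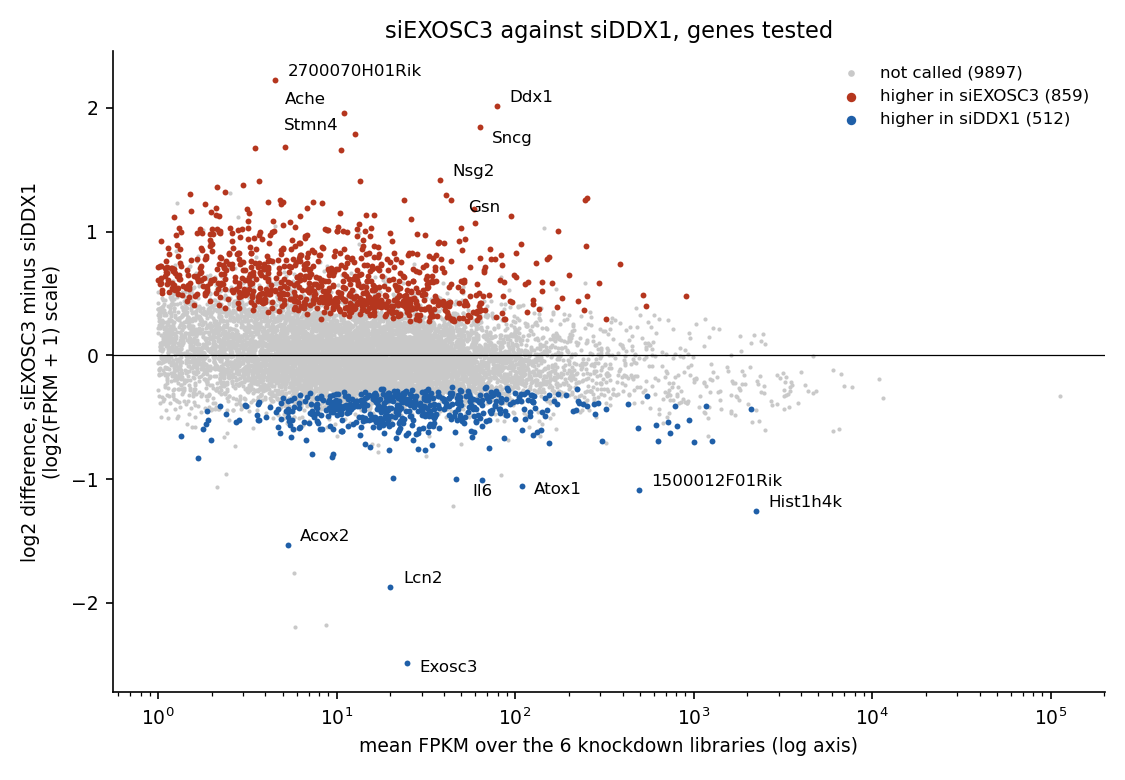
Mean FPKM over the 6 knockdown libraries (log axis) against the log2 difference, siEXOSC3 minus siDDX1, for each gene tested apart from the 2 snoRNA genes with unreliable zeros. Red points are the 859 genes called higher in siEXOSC3 and blue points the 512 called higher in siDDX1. Of the called points 72 lie at 1 or above and 7 at -1 or below, the lowest of them Exosc3 at -2.49.

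The number of calls rested on single libraries. Without siEXOSC3_1 the fit called 206 genes higher in siEXOSC3 and 38 higher in siDDX1, and without siEXOSC3_3 it called 450 and 156. Leaving out siDDX1_1 gave 228 and 39, and leaving out siDDX1_2 gave 242 and 44. Without siEXOSC3_2 the counts were 967 and 656, and without siDDX1_3 they were 905 and 627. Over the genes tested, log2 values of siEXOSC3_2 correlated with those of siDDX1_3 at Pearson r = 0.987, beside 0.992 with siEXOSC3_1 and 0.983 with siEXOSC3_3. The siDDX1_3 values correlated with siDDX1_2 at 0.990 and with siDDX1_1 at 0.987, a description across genes that are not independent. A principal component with 52.1% of the variance separated the groups, and another with 27.5% placed siEXOSC3_2 (17.3) and siDDX1_3 (14.2) apart from the other 4 libraries, which lay between -14.2 and 0.71. After removal of a trend with GC content and transcript length from each library, over the 10286 genes with an annotation, 818 genes were higher in siEXOSC3 and 737 in siDDX1, so 52.6% of calls were on the siEXOSC3 side against 62.7% over all genes. Without the removal, 780 and 479 of those annotated genes were called.

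**Figure D2:**
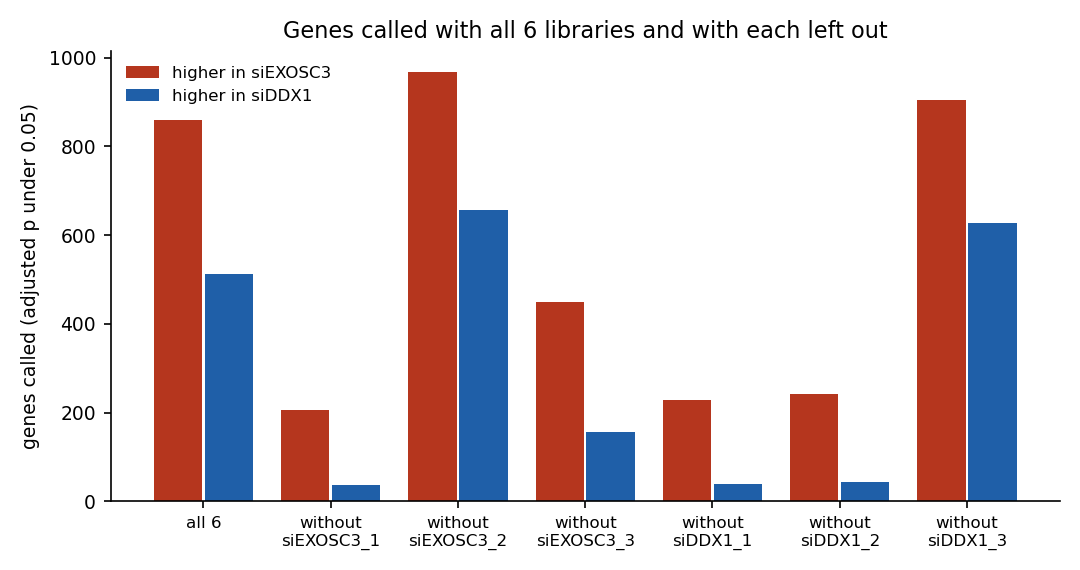
Number of genes called higher in siEXOSC3 (red) and higher in siDDX1 (blue), with all 6 libraries and with each library left out in turn. The counts fall to 206 and 38 without siEXOSC3_1 and reach 967 and 656 without siEXOSC3_2.

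Scramble levels give each group's side of the difference. Among the 859 genes higher in siEXOSC3, 433 (50.4%) had all siEXOSC3 values above all scramble values and siDDX1 values that overlapped scramble. Of all genes tested, 13.5% had that pattern. A further 155 of the 859 (18.0%) had siEXOSC3 above and siDDX1 below scramble. Of all 2124 genes tested whose siEXOSC3 values lay wholly above siDDX1, 180 (8.47%) did so. For 126 of the 859 (14.7%) siEXOSC3 overlapped scramble and siDDX1 lay below it, and 112 (13.0%) were above scramble in both. Over all genes tested these shares were 6.49% and 8.93%. Among the 512 genes higher in siDDX1, 262 (51.2%) had siEXOSC3 below scramble and siDDX1 overlapping it, beside 14.8% of all genes tested. In 93 of the 512 (18.2%) siEXOSC3 was below and siDDX1 above scramble. That held for 140 (6.71%) of all 2087 genes tested whose siDDX1 values lay wholly above siEXOSC3. These are counts of library values with no test against scramble. Called genes were chosen by the difference between the groups, which can by itself raise such shares.

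Neuronal genes had the highest median of the 30 gene lists. Of 45 cytoskeleton and synapse genes tested, 26 were higher in siEXOSC3, 1 was higher in siDDX1, and 18 were not called, so 60% were called against 12.2% of all genes tested. The median log2 difference was 0.57, against -0.01 over all genes tested. In 33 of the 45 every siEXOSC3 value lay above every siDDX1 value, which 18.8% of all genes tested showed. Members stood at a median of 157.7% of their scramble level in siEXOSC3 and at 99.5% in siDDX1. The list's median, centred on each gene's mean, lay between 0.21 and 0.44 in the siEXOSC3 libraries and between -0.34 and -0.24 in the siDDX1 libraries. Between 17 and 28 members were called higher in siEXOSC3 with 1 library left out, the 17 without siDDX1_1.

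Acetylcholinesterase and synuclein genes led the group. Ache (chr5:137728747-137735694, plus strand), the enzyme that breaks down acetylcholine, stood at 18.1, 12.7 and 23.5 FPKM in siEXOSC3 and at 4.28, 4.48 and 2.76 FPKM in siDDX1. All 3 siEXOSC3 libraries were well above scramble (3.91 ± 0.319 FPKM, SD, n = 3), which the siDDX1 libraries straddled. The log2 difference of Ache was 1.96 (SE 0.222, limma adjusted p = 0.00389). Sncg (chr14:35183460-35187975, minus strand), which encodes gamma-synuclein, stood at 93.5, 92.1 and 114 FPKM in siEXOSC3 and at 26.5, 30.1 and 24.3 FPKM in siDDX1, beside 25.7 ± 2.68 FPKM in scramble (SD, n = 3). Its siEXOSC3 mean was 3.70 times the siDDX1 mean, with a log2 difference of 1.85 (SE 0.111, limma adjusted p = 3.78e-04). Both genes were called with any 1 library left out.

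The 3 stathmin genes on the list, Stmn2, Stmn3 and Stmn4, were higher in siEXOSC3, and stathmins destabilize microtubules in growing neurites. Stmn4 stood at 21.6, 16.2 and 22.6 FPKM in siEXOSC3 and at 5.70, 6.36 and 3.52 FPKM in siDDX1, a log2 difference of 1.79 (SE 0.196, limma adjusted p = 0.00356). For Stmn2 the values were 7.72, 6.72 and 7.28 FPKM against 2.69, 2.55 and 2.37 FPKM, a log2 difference of 1.22 (SE 0.0964, limma adjusted p = 0.00114). In both genes the lowest siEXOSC3 library was above the highest siDDX1 library and above the scramble mean (7.32 and 2.96 FPKM). Stmn3 differed by 0.57 (limma adjusted p = 0.00612), while Stmn1, not on the list, was not called (-0.16, limma adjusted p = 0.241). The growth cone protein gene Gap43 was higher in siEXOSC3 by a log2 difference of 1.00, the neuronal tubulin gene Tubb3 by 0.75 and the dendritic microtubule protein gene Map2 by 0.73, with limma adjusted p-values of 0.00114, 0.00259 and 0.00685. Stmn1, Stmn3 and these 3 genes were picked as examples after their values were seen.

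The same list holds Chga, which encodes the secretory granule protein chromogranin A. It stood at 141, 128 and 156 FPKM in siEXOSC3 and at 77.9, 74.8 and 73.6 FPKM in siDDX1. Its scramble level was 87.3 ± 6.12 FPKM (SD, n = 3), above all 3 siDDX1 libraries and below all 3 siEXOSC3 libraries. The log2 difference was 0.90 (SE 0.0879, limma adjusted p = 0.00224). Nsg2, a neuronal vesicle protein gene that is not on the list, stood at 53.8, 51.4 and 61.4 FPKM against 19.4, 20.3 and 20.7 FPKM, a log2 difference of 1.42 (SE 0.0862, limma adjusted p = 3.78e-04). The exception in the list was Syt4, a synaptotagmin gene, at 45.8, 46.3 and 34.5 FPKM in siEXOSC3 and 60.5, 57.5 and 66.8 FPKM in siDDX1 (log2 difference -0.54, limma adjusted p = 0.0291). The call on Syt4 was lost when any of 4 libraries was left out, with adjusted p-values up to 0.093.

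**Figure D3:**
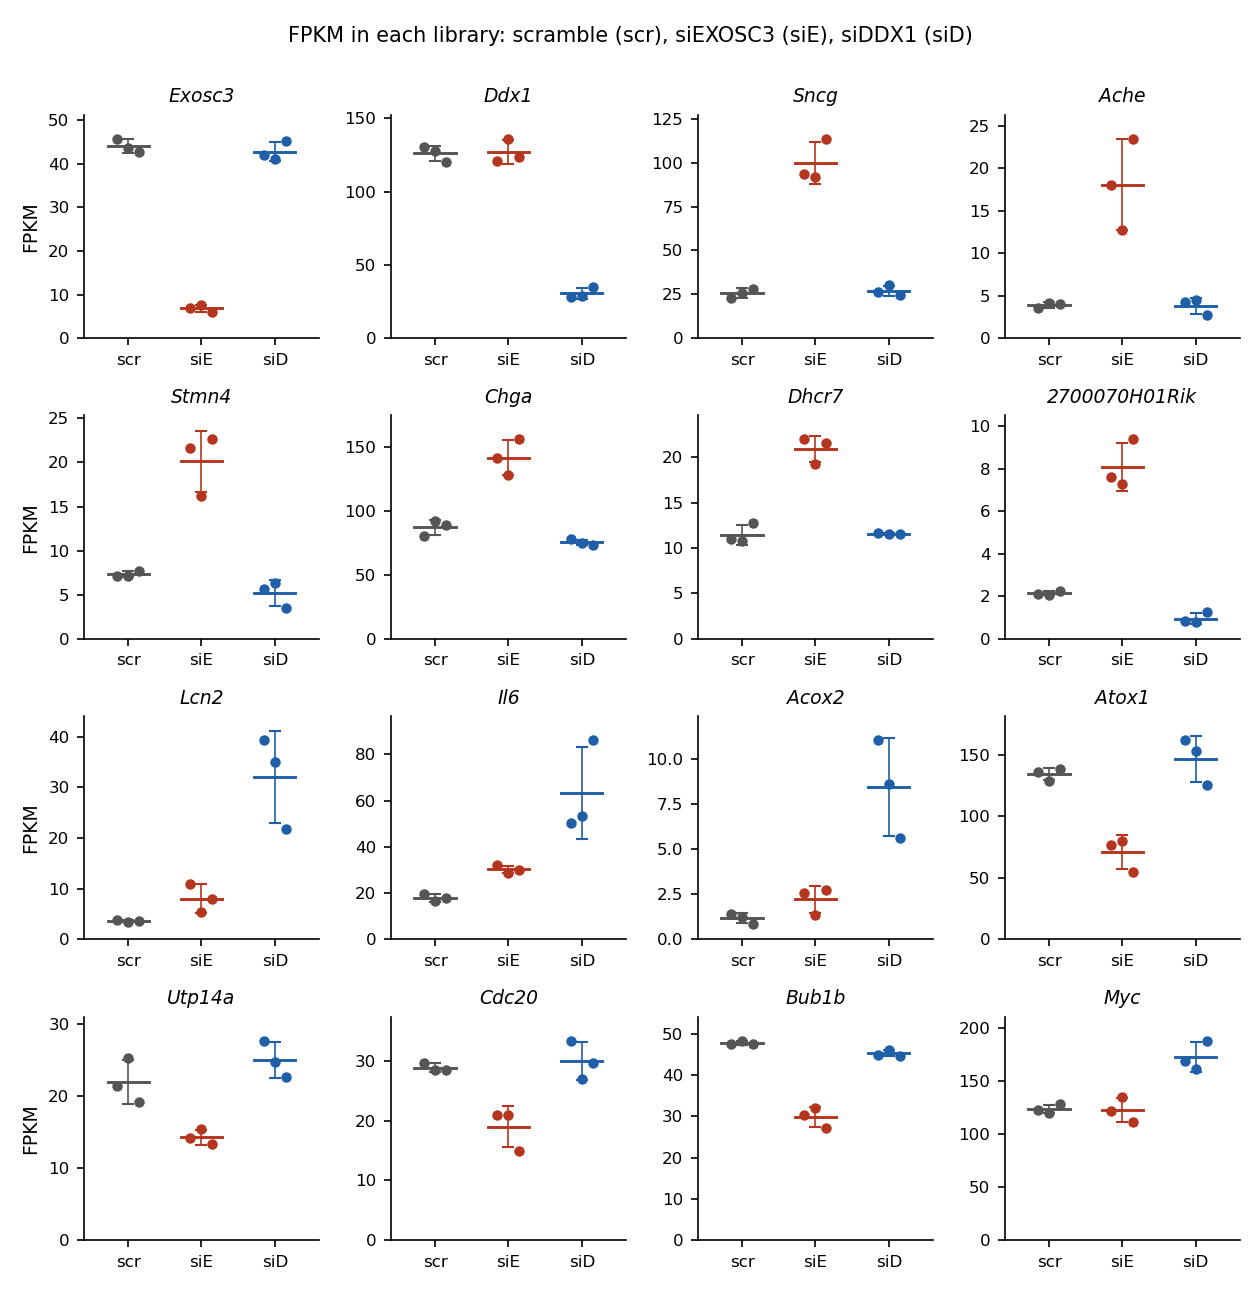
FPKM of 16 genes in each library of scramble (grey), siEXOSC3 (red) and siDDX1 (blue), with the mean (line) and SD (bar) of 3 libraries. Sncg, Ache and Stmn4 are high in siEXOSC3 with siDDX1 near or below scramble. Lcn2, Il6 and Acox2 are highest in siDDX1, and Utp14a, Cdc20 and Bub1b are lowest in siEXOSC3.

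Some markers of the sympathetic neuroblast itself were among the genes higher in siEXOSC3. Of 13 neuroblastoma markers tested, 5 were higher in siEXOSC3 and 0 in siDDX1 (38.5% called, 12.2% of all genes tested), with a median log2 difference of 0.48. Besides Chga and Stmn2, which are on the neuronal list as well, these were Dbh, Isl1 and Phox2a, the last pair named after their values were seen. Dbh, which encodes the enzyme that makes noradrenaline, stood at 9.05, 8.35 and 10.0 FPKM in siEXOSC3 and at 3.38, 4.49 and 4.76 FPKM in siDDX1 (log2 difference 0.97, SE 0.127, limma adjusted p = 0.00628). The transcription factor genes Isl1 and Phox2a differed by 0.84 and 0.78 (limma adjusted p = 0.00743 and 0.00554). Of 23 markers of fibroblasts, glia, blood, endothelium, epithelium and muscle, 3 were tested and 0 called, 18 were below 1 FPKM in all 6 libraries, and Col1a2, Col3a1, Aqp4, Olig2 and Myod1 were at 0 in all 6. Their summed level was 17.4 to 23.6 FPKM in siEXOSC3, 16.3 to 20.1 FPKM in siDDX1 and 19.0 to 20.2 FPKM in scramble.

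Adhesion and guidance genes differed in both directions. Of 22 extracellular matrix and integrin genes, 5 were higher in siEXOSC3 and 2 in siDDX1 (31.8% called, 12.2% of all genes tested), with a median of 0.20. Integrin alpha 2 (Itga2) stood at 7.28, 6.2 and 7.74 FPKM in siEXOSC3 and 2.33, 3.06 and 3.33 FPKM in siDDX1 (log2 difference 1.05, limma adjusted p = 0.00501). Integrin beta 3 (Itgb3, 0.93) and the laminin chain gene Lama4 (0.81) were also higher in siEXOSC3, with limma adjusted p-values of 0.00896 and 0.00259, and so were Itgav (0.53) and Col4a2 (0.49), named after their values were seen. Fibronectin (Fn1) and integrin beta 5 (Itgb5) were higher in siDDX1, by -0.49 and -0.52 (limma adjusted p = 0.0251 and 0.00837). Without siDDX1_1 or siDDX1_2, 3 of the list were called higher in siEXOSC3 and 1 in siDDX1. The median was 0.09 without siEXOSC3_3 and 0.02 over 44 genes with no filter on low FPKM.

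Among 36 axon guidance genes, 6 were higher in siEXOSC3 and 2 in siDDX1 (22.2% called, 12.2% of all genes tested), with a median of 0.14. The adhesion molecule gene L1cam stood at 91.2, 81.4 and 122 FPKM against 56.6, 58.9 and 52.5 FPKM (log2 difference 0.78, limma adjusted p = 0.0154). Its exons overlap those of Arhgap4 on the same strand, so reads may be shared. Sema6d (0.57) and Sema4a (0.53), which encode semaphorin ligands, were higher in siEXOSC3. Nrp2, a semaphorin receptor gene, was higher in siDDX1, at 66.5, 62.8 and 71.1 FPKM in siEXOSC3 and 120, 112 and 89.7 FPKM in siDDX1 (log2 difference -0.67, limma adjusted p = 0.0139). Quantile normalization gave 3 higher in siEXOSC3 and 2 in siDDX1, and none of the 36 was called without siEXOSC3_1, siDDX1_1 or siDDX1_2. Of 14 clustered protocadherin genes, 2 were higher in siEXOSC3 (Pcdhb11, 0.64, and Pcdha9, 0.53) and 0 in siDDX1. That is 14.3% called, beside 12.2% of all genes tested, and these genes share exons within their clusters, so their split is uncertain. Of the 14, 0 were called without siEXOSC3_1, siEXOSC3_3, siDDX1_1 or siDDX1_2.

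Of 23 cholesterol synthesis and uptake genes, 3 were higher in siEXOSC3 and 0 in siDDX1 (13.0% called, 12.2% of all genes tested), with a median of 0.14. Dhcr7, the reductase of the final step, was at 22.0, 19.2 and 21.6 FPKM in siEXOSC3 and at 11.6 FPKM in each siDDX1 library, level with scramble (11.5 ± 1.08 FPKM, SD, n = 3). Its log2 difference was 0.80 (SE 0.0810, limma adjusted p = 0.00257). Tm7sf2, a sterol reductase gene of the same pathway, stood at 7.32, 6.81 and 7.40 FPKM against 2.72, 2.17 and 2.43 FPKM (log2 difference 1.25, SE 0.10, limma adjusted p = 0.00114), with 1110014N23Rik overlapping its exons on the same strand. Both calls held with any 1 library left out. Cyp51 differed by 0.29 (limma adjusted p = 0.0408) and kept its call in 1 of 6 such fits.

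Immediate early genes, which respond fast to growth and stress signals, had 5 of 30 called (16.7%, beside 12.2% of all genes tested). Of these, 4 were higher in siEXOSC3 and 1 in siDDX1, and the list median was 0.08. Jun stood at 20.9, 22.4 and 20.5 FPKM in siEXOSC3 and at 10.2, 11 and 12.1 FPKM in siDDX1, the latter around the scramble level of 12 ± 0.936 FPKM (SD, n = 3). It differed by 0.88 (SE 0.0881, limma adjusted p = 0.0024), and the call held with any 1 library left out. Jund (0.56), the phosphatase gene Dusp1 (0.49) and Klf6 (0.37, named after its value was seen) were the others on that side. Myc was the exception, at 122, 135 and 112 FPKM in siEXOSC3, beside scramble (124 ± 4.14 FPKM, SD, n = 3), and at 169, 161 and 188 FPKM in siDDX1 (log2 difference -0.49, limma adjusted p = 0.0206). Myc was called in 2 of the 6 fits with 1 library left out. The count on the siEXOSC3 side was 1 without siEXOSC3_1 or siDDX1_2, 2 without siEXOSC3_3 or siDDX1_1, and 7 without siEXOSC3_2.

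Of 359 genes that RefSeq classes as long noncoding RNA, 76 were higher in siEXOSC3 and 13 in siDDX1 (24.8% called, 12.2% of all genes tested), with a median log2 difference of 0.23. Among 10791 protein-coding genes 774 were higher in siEXOSC3 and 498 in siDDX1, with a median of -0.02. The lncRNA median, centred on each gene's mean, was 0.07 to 0.16 in the siEXOSC3 libraries and -0.16 to -0.07 in the siDDX1 libraries. The count on the siEXOSC3 side was 24 without siEXOSC3_1, 28 without siDDX1_2 and 30 without siDDX1_1, and quantile normalization gave 48 and a median of 0.12. Among the 114 lncRNA genes with a mean of at least 5 FPKM, 12 were higher in siEXOSC3 and 10 in siDDX1, with a median of 0.08. With no filter on low FPKM the median over 1177 lncRNA genes was 0.06.

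The largest called difference on the siEXOSC3 side belonged to 2700070H01Rik, an lncRNA gene of no given function. It stood at 7.63, 7.28 and 9.39 FPKM in siEXOSC3 and at 0.822, 0.771 and 1.25 FPKM in siDDX1, with scramble between them at 2.15 ± 0.0899 FPKM (SD, n = 3). The groups lay on opposite sides of scramble, and the siEXOSC3 mean was 8.54 times the siDDX1 mean (log2 difference 2.22, SE 0.137, limma adjusted p = 3.78e-04). Opposite-strand transcripts, named for the gene they run against, showed 5 of 37 higher in siEXOSC3 and 1 (Wdr83os, which RefSeq classes as protein-coding) higher in siDDX1. That is 16.2% called, beside 12.2% of all genes tested. Their median was -0.0035 and changed sign with the scaling between the tables. Ggnbp2os stood at 7.35, 7.5 and 7.34 FPKM against 2.6, 1.90 and 3.30 FPKM (log2 difference 1.24, limma adjusted p = 0.00403). Fam120aos followed at 12.4, 13.1 and 11.5 FPKM against 4.83, 5.14 and 7.07 FPKM (1.01, limma adjusted p = 0.00628), then Hk1os (0.87), with Med9os (0.82) and Cebpzos (0.49) named after their values were seen. Without strand, reads of each could come from its partner. The count on the siEXOSC3 side was 3 without siEXOSC3_1, siEXOSC3_3, siDDX1_1 or siDDX1_2.

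Some hosts of small nucleolar RNAs were higher in siDDX1. These spliced transcripts carry the snoRNAs that guide rRNA modification in their introns. Of 18 tested, 6 were higher in siDDX1 and 1 (Snhg10) in siEXOSC3, so 38.9% were called against 12.2% of all genes tested, with a median log2 difference of -0.35. The list median of siDDX1_3 (-0.09 from each gene's mean) lay within the siEXOSC3 range of -0.23 to -0.08, and quantile normalization gave a median of -0.25 with 3 higher in siDDX1. The host 1500012F01Rik (Zfas1) stood at 346, 261 and 314 FPKM in siEXOSC3 and at 882, 735 and 423 FPKM in siDDX1, with scramble at 482 ± 87.2 FPKM (SD, n = 3). The third siDDX1 library was the closest to the siEXOSC3 range (log2 difference -1.09, limma adjusted p = 0.0304). Snhg12 differed by -0.69 and Snhg8 by -0.47 (limma adjusted p = 0.0494 and 0.0263). None of the hosts was called higher in siDDX1 without siEXOSC3_1, siEXOSC3_3, siDDX1_1 or siDDX1_2, and 9 were without siDDX1_3. The annotation places snoRNAs within exons of 1500012F01Rik and Snhg12, so their reads may be shared.

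Ribosome biogenesis genes gave the most calls of any list on the siDDX1 side. Of 61 rRNA processing factors, 23 were higher in siDDX1 and 0 in siEXOSC3 (37.7% called, 12.2% of all genes tested), with a median log2 difference of -0.32. In 42 of the 61 every siDDX1 value lay above every siEXOSC3 value, which 18.5% of all genes tested showed. Their median level was 83.0% of scramble in siEXOSC3 and 103.8% in siDDX1. Utp14a, a factor of small-subunit rRNA processing, stood at 14.2, 15.4 and 13.3 FPKM in siEXOSC3 and at 27.7, 24.8 and 22.7 FPKM in siDDX1. All siEXOSC3 values were under the scramble libraries (22.0 ± 3.06 FPKM, SD, n = 3), which overlapped siDDX1. The log2 difference was -0.77 (SE 0.0974, limma adjusted p = 0.00568), held with any 1 library left out.

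Other members were smaller and less stable. Rrp9, a protein of the U3 snoRNP, stood at 16.5, 19.4 and 16.9 FPKM against 31.0, 24.8 and 26.2 FPKM (log2 difference -0.60, limma adjusted p = 0.0147). Polr1b, a subunit of RNA polymerase I, stood at 23.1, 28.1 and 18.3 FPKM against 36.5, 33.4 and 35.3 FPKM (log2 difference -0.59, limma adjusted p = 0.0328). The abundant nucleolar protein genes Npm1 (-0.43) and Ncl (-0.38), picked as examples after their values were seen, were called as well. The list count was 1 without siEXOSC3_1 or siDDX1_1, 2 without siDDX1_2, 7 without siEXOSC3_3, 15 without siDDX1_3 and 33 without siEXOSC3_2, and quantile normalization gave 14. Cytosolic ribosomal protein genes had a median of -0.31 over 80 genes, which was -0.09 with quantile normalization. Only Rps20 was called (1128, 890 and 889 FPKM against 1903, 1624 and 1226 FPKM, log2 difference -0.69, limma adjusted p = 0.0413). That is 1.25% called, under the 12.2% of all genes tested. Without siDDX1_3, 48 of the 80 were called higher in siDDX1, beside 627 of all 11270 genes tested. That library's list median (-0.09 from each gene's mean) lay within the siEXOSC3 range of -0.22 to -0.06, while siDDX1_1 and siDDX1_2 were at 0.30 and 0.24. Ribosomal protein genes have many processed copies, and how the authors' counting shared reads among them is not stated.

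**Figure D4:**
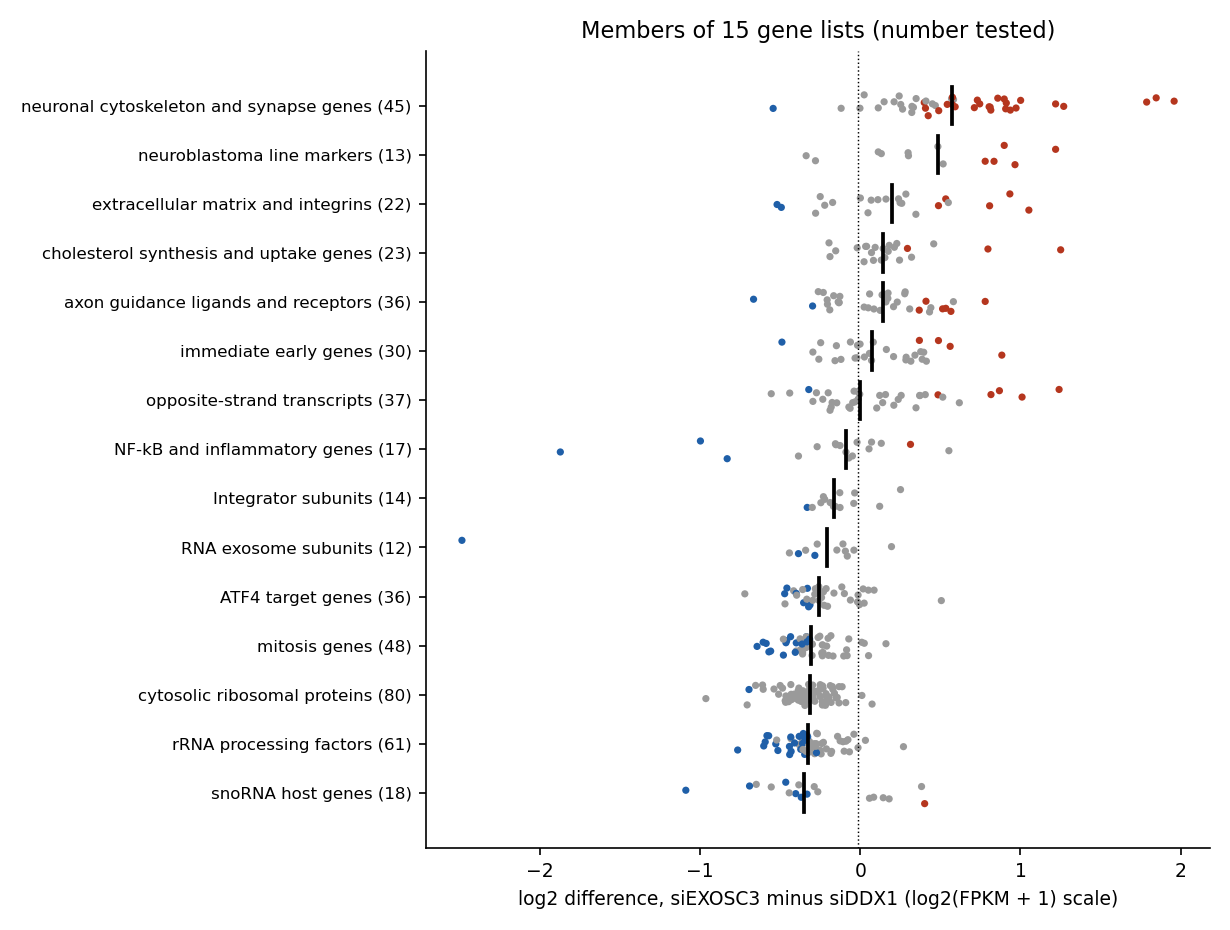
Log2 difference, siEXOSC3 minus siDDX1, of each tested member of 15 gene lists. Red members were called higher in siEXOSC3 and blue ones higher in siDDX1, black bars are list medians, and the dotted line is the median of all genes tested (-0.01). Medians run from 0.57 for neuronal cytoskeleton and synapse genes to -0.35 for snoRNA host genes.

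A part of the mitotic genes was lower in siEXOSC3. Of 48 genes of the spindle, its checkpoint and the anaphase switch, 15 were higher in siDDX1, 0 in siEXOSC3 and 33 were not called (31.2% called, 12.2% of all genes tested), with a median log2 difference of -0.31. Their median level was 74.2% of scramble in siEXOSC3 and 90.5% in siDDX1. Bub1b, a kinase-like protein of the spindle checkpoint, stood at 30.2, 32.1 and 27.2 FPKM in siEXOSC3 and at 44.9, 46.0 and 44.7 FPKM in siDDX1. Scramble stood at 47.7 ± 0.477 FPKM (SD, n = 3), above both. The log2 difference was -0.59 (SE 0.0807, limma adjusted p = 0.007), and the call held with any 1 library left out. The count over the list was 1 without siEXOSC3_1 or siDDX1_2, 2 without siDDX1_1, 5 without siEXOSC3_3, 9 without siDDX1_3 and 27 without siEXOSC3_2. Of 47 DNA replication genes, 2 were higher in siEXOSC3 (Ccne2, 0.75, and E2f1, 0.33) and 1 in siDDX1 (Mcm3, -0.48), so 6.38% were called against 12.2% of all genes tested, with a median of -0.04. None of the 47 was called without siEXOSC3_1, siDDX1_1 or siDDX1_2, 5 were higher in siDDX1 without siEXOSC3_2, and the median was 0.02 without siEXOSC3_3 and 0.03 without siDDX1_3.

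Cdc20 and Ccnb1 carry the switch into and out of mitosis, as activator of the anaphase-promoting complex and as cyclin B1. Cdc20 stood at 21.0, 21.0 and 15 FPKM in siEXOSC3 and at 33.4, 26.9 and 29.7 FPKM in siDDX1 (log2 difference -0.64, limma adjusted p = 0.0265). Ccnb1 stood at 116, 130 and 87.1 FPKM against 170, 177 and 156 FPKM (log2 difference -0.61, limma adjusted p = 0.0323). Each was called in 3 of 6 fits with 1 library left out. Promoters of such genes are known to pair CCAAT boxes with a cell cycle homology region (CHR). Their windows of 250 bases before the RefSeq start (GRCm38.p6) are printed to show where those letters fall, at chr4:118437344-118437593 for Cdc20 and chr13:100786487-100786736 for Ccnb1, both minus strand, with matches to CCAAT and TTTGAA on either strand in capitals.
Cdc20: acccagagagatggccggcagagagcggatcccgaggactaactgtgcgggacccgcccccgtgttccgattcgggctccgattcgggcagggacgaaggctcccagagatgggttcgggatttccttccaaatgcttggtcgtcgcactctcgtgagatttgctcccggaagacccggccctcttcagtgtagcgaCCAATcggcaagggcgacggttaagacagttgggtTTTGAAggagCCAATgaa
Ccnb1: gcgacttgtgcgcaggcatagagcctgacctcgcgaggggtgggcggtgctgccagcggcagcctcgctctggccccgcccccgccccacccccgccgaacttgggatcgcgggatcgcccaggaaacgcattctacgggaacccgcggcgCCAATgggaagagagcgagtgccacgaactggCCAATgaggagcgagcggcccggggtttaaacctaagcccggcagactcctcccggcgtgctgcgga
In Cdc20 the CCAAT letters begin 53 and 8 bases before the start and the TTTGAA letters 18 bases before it. In Ccnb1 they begin 99 and 67 bases before the start, with no TTTGAA. Of the 39 mitosis genes tested that have a window, 31 (79.5%) held CCAAT, against 41.1% of genes tested, 44.7% of genes called higher in siDDX1 and 33.9% of all 32851 windows. TTTGAA was in 13 of the 39 (33.3%), against 12.1% of genes tested, 12.8% of genes called higher in siDDX1 and 16% of all windows. Bub1b held a CCAAT match and no TTTGAA. All shares of genes here are over those with a window. The CCAAT and CHR letters do not overlap, and a match is a description of the sequence only.

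ATF4 is the transcription factor of the integrated stress response, and its targets supply amino acids or mark stress. Of 36 ATF4 target genes tested, 7 were higher in siDDX1, 0 in siEXOSC3 and 29 were not called (19.4% called, 12.2% of all genes tested), with a median log2 difference of -0.26. The list median lay between -0.18 and -0.07 in the siEXOSC3 libraries and between 0.09 and 0.20 in the siDDX1 libraries. Phgdh, which opens serine synthesis, stood at 247, 230 and 224 FPKM against 365, 326 and 287 FPKM (log2 difference -0.47, limma adjusted p = 0.0268). Shmt2, which turns serine to glycine in mitochondria, stood at 122, 120 and 117 FPKM against 160, 155 and 180 FPKM (log2 difference -0.46, limma adjusted p = 0.015), and its exons overlap Ndufa4l2 on the other strand. Without siEXOSC3_1 or siDDX1_1 none of the list was called, and quantile normalization gave 2. Of the stress markers on the list, Ddit3 and Atf3 were not called, with Ddit3 at a log2 difference of 0.05 and Atf3 at -0.06.

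Among inflammatory genes a few differed by much. Lcn2 had the largest called difference on the siDDX1 side after Exosc3. Of 17 listed genes tested, 3 were higher in siDDX1 (Lcn2, Il6 and Saa3) and 1 in siEXOSC3 (Nfkbia, 0.31). That is 23.5% called, beside 12.2% of all genes tested, with a median of -0.09. Lcn2 (chr2:32240153-32243317, minus strand), which encodes the secreted iron-siderophore binder lipocalin 2, stood at 10.9, 5.35 and 7.90 FPKM in siEXOSC3 and at 39.3, 35.0 and 21.8 FPKM in siDDX1. Both groups lay above scramble (3.65 ± 0.206 FPKM, SD, n = 3). The log2 difference was -1.87 (SE 0.264, limma adjusted p = 0.00738). Il6, which encodes the cytokine interleukin 6, stood at 32.0, 28.7 and 30.1 FPKM against 50.3, 53.3 and 86.2 FPKM, and again both groups were above scramble (18.1 ± 1.68 FPKM, SD, n = 3). Il6 differed by -1.0 (SE 0.184, limma adjusted p = 0.0164). Saa3, an acute-phase serum amyloid gene, stood at 0.854, 1.18 and 0.760 FPKM against 2.31, 2.56 and 2.40 FPKM (log2 difference -0.83, limma adjusted p = 0.00838). Lcn2 and Saa3 were called with any 1 library left out, and Il6 in 5 of the 6 fits, with adjusted p-values up to 0.0632. The Nfkbia call was lost whichever library was left out.

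The transcription factor NF-kB is a known activator of genes of this kind and binds a short motif of G and C runs around A and T, searched for here in a shortened form with free positions. The window of 250 bases before the RefSeq start is printed for Il6, which holds a match (chr5:30012864-30013113, plus strand), and for Lcn2, which holds none (chr2:32387740-32387989, minus strand), both of GRCm38.p6 and with the match in capitals.
Il6: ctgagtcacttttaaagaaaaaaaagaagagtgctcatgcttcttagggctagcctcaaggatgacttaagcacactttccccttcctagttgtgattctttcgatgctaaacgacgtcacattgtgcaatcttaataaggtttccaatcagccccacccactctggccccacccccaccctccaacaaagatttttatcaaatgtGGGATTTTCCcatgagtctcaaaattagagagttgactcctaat
Lcn2: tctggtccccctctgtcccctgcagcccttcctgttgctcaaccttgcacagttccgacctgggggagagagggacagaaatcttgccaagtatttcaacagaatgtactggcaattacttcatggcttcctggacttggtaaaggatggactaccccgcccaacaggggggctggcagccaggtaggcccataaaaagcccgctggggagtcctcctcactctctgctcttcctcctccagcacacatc
The match in Il6 begins 44 bases before the start. Among genes with a window, such letters, read on both strands, were in 7 of the 14 listed and in 4.60% of those tested. They were in 4.02% of those called higher in siDDX1 and in 3.44% of all windows. Saa3 had no match either. That Lcn2 and Saa3 hold none says only that these letters are not in these windows.

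Of 28 interferon response genes, 4 were called (14.3%, beside 12.2% of all genes tested), 2 in each direction, and the median was 0.10. Isg15, a ubiquitin-like protein induced by interferon, stood at 3.35, 2.80 and 3.93 FPKM in siEXOSC3 and at 1.33, 0.621 and 1.07 FPKM in siDDX1. Scramble was 2.83 ± 0.514 FPKM (SD, n = 3), so the siDDX1 libraries were the ones apart. Isg15 differed by 1.13 (SE 0.164, limma adjusted p = 0.00823). Cmpk2 (0.57) was on the same side, while the membrane protein gene Ifitm3 (-0.77) and Mavs (-0.41), the adaptor of RNA sensors, were higher in siDDX1. The count on the siEXOSC3 side was 1 in each fit without a library other than siEXOSC3_2, and 4 without that library. On the siDDX1 side it was 0 without siEXOSC3_3, siDDX1_1 or siDDX1_2.

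Metabolic and other genes outside the lists were among the largest differences on the siDDX1 side. Acox2, a peroxisomal oxidase of branched fatty acids and bile acid precursors, stood at 2.59, 1.36 and 2.74 FPKM in siEXOSC3 and at 11, 8.61 and 5.63 FPKM in siDDX1, with scramble at 1.19 ± 0.297 FPKM (SD, n = 3). Acox2 differed by -1.53 (SE 0.245, limma adjusted p = 0.011). The copper chaperone gene Atox1 differed through the other group, at 77.1, 80.3 and 55.0 FPKM in siEXOSC3 and 162, 153 and 126 FPKM in siDDX1, beside 135 ± 4.89 FPKM in scramble (SD, n = 3). Atox1 differed by -1.05 (SE 0.156, limma adjusted p = 0.00881). Fetub, a protease inhibitor of the fetuin family, stood at 40.3, 38.3 and 51.4 FPKM against 86.8, 92.3 and 82.7 FPKM (log2 difference -1.0, SE 0.115, limma adjusted p = 0.0039). All 3 calls held with any 1 library left out. The core clock repressor gene Cry1 was also higher in siDDX1 (-0.71, limma adjusted p = 0.0107). The 12 largest differences on this side further held the lncRNA gene 5730408K05Rik (-0.99), the secreted signalling protein gene Wisp1 (-0.82) and the membrane protein gene Tmem39a (-0.80), of which Tmem39a kept its call with any 1 library left out, 5730408K05Rik in 4 and Wisp1 in 1 of the 6 fits.

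On the siEXOSC3 side, further large differences fell on genes of several kinds. Pirt, a membrane regulator of sensory ion channels, stood at 8.82, 6.90 and 9.41 FPKM in siEXOSC3 and at 1.66, 2.08 and 1.99 FPKM in siDDX1 (log2 difference 1.68, limma adjusted p = 0.00114). Wfdc1 (1.67), which encodes a small secreted protein, and Dmkn (1.66), a secreted protein of epithelia, were similar in size, with limma adjusted p-values of 0.00219 and 0.00224. Gsn, the actin-severing protein gelsolin, stood at 59.3, 57.3 and 70.3 FPKM against 25.3, 26.6 and 24.3 FPKM (log2 difference 1.26, SE 0.0937, limma adjusted p = 0.00104). For Gsn scramble was 30.3 ± 2.44 FPKM (SD, n = 3), above the siDDX1 and below the siEXOSC3 libraries. Each of these 4 calls held with any 1 library left out. Haghl (1.41), Ndrg4 (1.41) and Susd2 (1.38) completed the 12 largest.

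Of 28 BMP and TGF-beta genes, 4 were called (14.3%, beside 12.2% of all genes tested), 3 higher in siEXOSC3 and 1 in siDDX1, with a median of 0.02. Smad9, a receptor-activated SMAD of the BMP branch, stood at 7.75, 7.86 and 6.71 FPKM in siEXOSC3, close to scramble (7.08 ± 0.248 FPKM, SD, n = 3), and at 3.98, 4.23 and 3.53 FPKM in siDDX1 (log2 difference 0.78, SE 0.103, limma adjusted p = 0.00636). The BMP target genes Id2 (0.75) and Id3 (0.38) were on the same side, and Smad3 (-0.45), of the TGF-beta branch, on the other. The count on the siEXOSC3 side was 1 without siEXOSC3_1 or siDDX1_1 and 5 without siDDX1_3. Bambi, a decoy receptor of this pathway, stood at 2.34, 2.27 and 2.07 FPKM against 1.28, 1.31 and 2.07 FPKM and was not called (log2 difference 0.35, 95% interval 0.03 to 0.67, limma adjusted p = 0.132). Both groups lay under its scramble level of 3.59 ± 0.289 FPKM (SD, n = 3). Celf4, a neuronal splicing regulator, was not called either (log2 difference 0.25, 95% interval -0.14 to 0.64, limma adjusted p = 0.336).

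Of the 12 exosome subunits, the siRNA target Exosc3 and 2 others, Exosc7 and Exosc10, were called higher in siDDX1 and 0 in siEXOSC3. That is 25% called, the target included, beside 12.2% of all genes tested. The median log2 difference, again with the target, was -0.21. The core ring gene Exosc7 stood at 28.2, 26.5 and 21.6 FPKM in siEXOSC3 and at 33.2, 34.1 and 32.8 FPKM in siDDX1 (log2 difference -0.39, limma adjusted p = 0.0454), and its call was lost whichever library was left out. The nuclease gene Exosc10 stood at 43.7, 46.3 and 43.5 FPKM against 56.6, 55.3 and 51.3 FPKM (log2 difference -0.28, limma adjusted p = 0.0435) and kept its call in 2 of those 6 fits. The other cap genes, Exosc1 (-0.15) and Exosc2 (-0.11), and the ring genes Exosc4 (-0.04), Exosc5 (-0.34), Exosc6 (0.19), Exosc8 (-0.44) and Exosc9 (-0.09) were not called, and nor were the nuclease genes Dis3 (-0.27) and Dis3l (-0.08). Of 20 cofactors of the exosome, 0 were called in either direction, beside 12.2% of all genes tested (median -0.12).

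Of the 6 tRNA ligase complex genes only Ddx1, the siRNA target, was called (16.7%, beside 12.2% of all genes tested). The ligase gene Rtcb stood at 93.8, 98.2 and 88.6 FPKM in siEXOSC3 and at 125, 116 and 107 FPKM in siDDX1, with no overlap but an adjusted p just over the threshold (log2 difference -0.31, limma adjusted p = 0.0507). Of 24 R-loop resolving factors 4.17% were called, under the 12.2% of all genes tested. This was Ddx41, a DEAD-box helicase, at 18.1, 18.2 and 17.8 FPKM against 28.1, 27.5 and 25.2 FPKM (log2 difference -0.55, limma adjusted p = 0.00699), and it held with any 1 library left out. Of 14 Integrator subunits, which cleave nascent RNA, 7.14% were called, again under 12.2%. Cpsf3l, the gene of the catalytic subunit, was called higher in siDDX1 (-0.33, limma adjusted p = 0.0265) and 0 the other way, a call lost without siEXOSC3_1, siEXOSC3_3, siDDX1_1 or siDDX1_2. Ints6 was not called, at 13.3, 14.9 and 10.5 FPKM against 13.5, 13.6 and 16.6 FPKM (log2 difference -0.17, 95% interval -0.48 to 0.14).

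**Figure D5:**
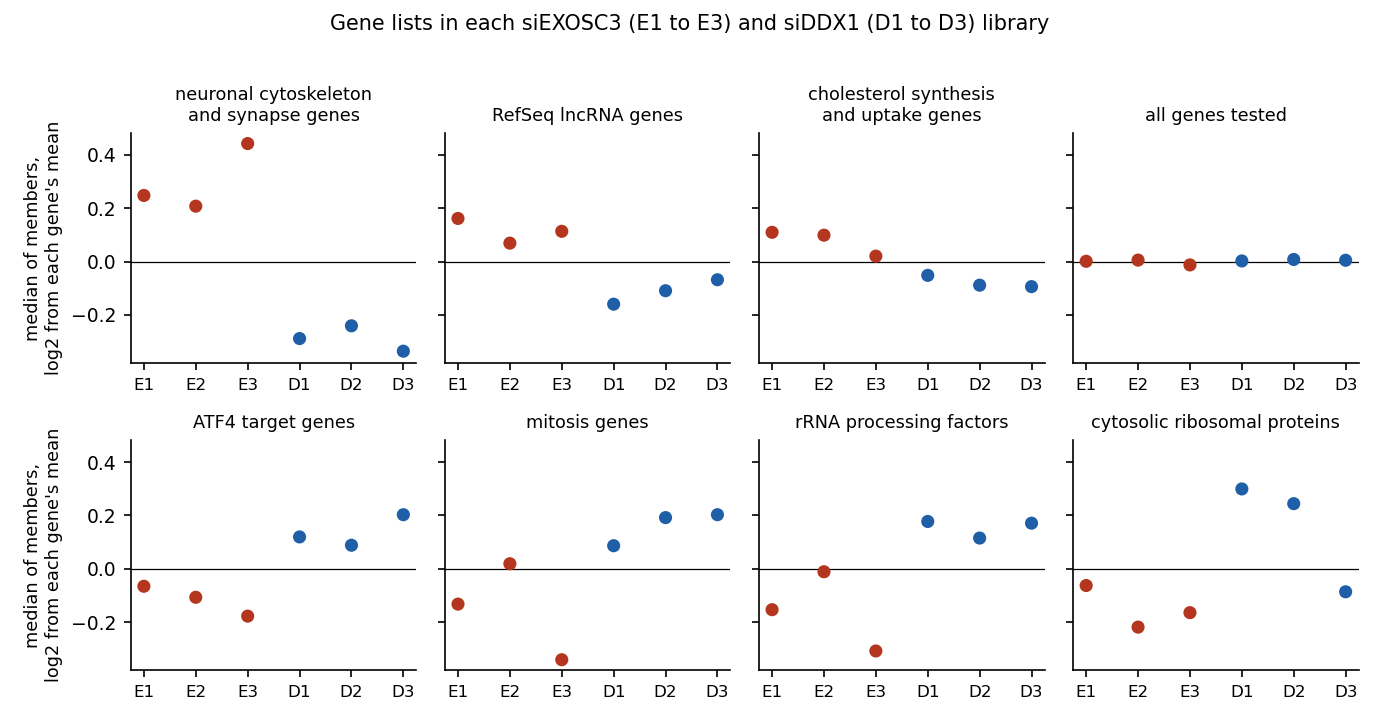
Median over the tested members of 8 gene sets in each siEXOSC3 library (red, E1 to E3) and siDDX1 library (blue, D1 to D3), on the log2 scale from each gene's mean over the 6 libraries. Neuronal, lncRNA and cholesterol genes are above 0 in every siEXOSC3 library and below 0 in every siDDX1 library. Cytosolic ribosomal protein genes are split within siDDX1, with D3 at -0.09.

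Of 56 histone genes of the replication-dependent clusters, 7 were higher in siDDX1 and 2 in siEXOSC3 (16.1% called, 12.2% of all genes tested), with a median of -0.25. That median was -0.07 without siEXOSC3_3, -0.14 without siDDX1_3 and -0.39 without siEXOSC3_2, and the library medians overlapped (siEXOSC3_2 at 0.08, siDDX1_2 at -0.06). Hist1h4k stood at 1038, 1149 and 1836 FPKM in siEXOSC3 and at 3181, 2681 and 3514 FPKM in siDDX1 (log2 difference -1.26, limma adjusted p = 0.0145), while the scramble libraries spread widely (1978 ± 939 FPKM, SD, n = 3). Their transcripts are near-identical and mostly lack poly(A) tails, so the split of reads among them is uncertain. On the other side were Hist2h2be (0.62) and Hist3h2bb-ps (0.60). None of the family was called higher in siDDX1 without siEXOSC3_1 or siDDX1_1, and 12 were without siEXOSC3_2.

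The remaining lists had called shares under the background of 12.2%. Of 24 p53 targets, Cdkn1a, the cyclin-dependent kinase inhibitor p21, was higher in siEXOSC3 (73.6, 65.6 and 82.3 FPKM against 51.5, 54.0 and 49.0 FPKM, log2 difference 0.51, limma adjusted p = 0.0176) and Trp53 itself higher in siDDX1 (-0.39). Of 34 hypoxia genes Car12 was higher in siEXOSC3 (0.78) and Pfkfb3 in siDDX1 (-0.33). Hsph1 (-0.44) was the 1 called of 15 heat shock chaperone genes, Atp5s (0.39) the 1 called of 77 respiratory chain genes, and 0 of 21 endoplasmic reticulum chaperone genes were called. With 1 library left out, the call was kept in 3 of 6 fits by Cdkn1a, in 2 by Hsph1 and in 1 each by Trp53, Car12, Pfkfb3 and Atp5s. Pfkfb3 also lost its call in 6 of the other settings at the same threshold, among them no rescaling between the tables. None of the 7 snoRNA and scaRNA genes tested was called. Among these Snora78 and Snora81 were listed at 0 in some libraries and among the abundant genes in others, so no difference is given for them.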

How the data were processed

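Reads were mapped to mm9 by the authors using TopHat2 version 2.1.0. Cuffdiff version 2.2.1 then compared each depletion with scramble, and the FPKM values it gave were deposited as 2 tables of 24318 genes. Both hold the same 3 scramble libraries. The annotation and library normalization given to Cuffdiff are not given in the sources used here. FPKM holds no read counts, so depth is unknown, no count model was used and no counting interval is given.

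The siDDX1 table was multiplied by 1.00793, the median ratio of the shared scramble values (genes of at least 1 FPKM). Genes with a mean of at least 1 FPKM over the 6 knockdown libraries were tested on log2(FPKM + 1) by limma (version 3.58.1, R 4.3.3, intensity trend, two-sided, Benjamini-Hochberg over all 11270 genes, threshold 0.05, no covariates). Plates are the replicates. Tested on simulated data of 11270 genes for this comparison, the fit recovered 173 of 200 genes changed by a log2 of 1 (86.5%). It gave 0 with the wrong sign and 7 false calls. How many of the calls on the 6 knockdown libraries are false was not tested.

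Genes named are those the study depletes or shows, in each direction the 12 largest called differences without overlap, up to 3 of each list and up to 5 with scramble between the groups, and the exosome subunits. Exceptions are marked. The comparison, the 30 gene lists and the rule were chosen with earlier results of these data known. The lists get counts and medians, with no set test. Positions came from GENCODE vM1 (mm9), which matched 10286 tested genes, and classes and promoter windows from RefSeq (GRCm38.p6). Alternatives were another pseudocount, filter, scaling, spread estimate, threshold, gene set or GC and length correction, a replicate block, and each library left out. The DRIP-seq data were not used here.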

Additional observations from a re-analysis of the deposited data

How the results depend on the processing

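Values below are genes higher in siEXOSC3, then genes higher in siDDX1, beside 859 and 512. With all 9 libraries sharing the estimate of spread they were 1379 and 1172, and at an adjusted p under 0.01 they were 180 and 26. Without a filter on low FPKM they were 693 and 285. Leaving out 1 library gave 206 to 967 and 38 to 656. The pseudocount, the higher filter, the scalings, the trend, the gene class and the GC correction kept each count within 1.5 times. Exosc3 and Ddx1 kept direction and call throughout. With the replicate number as a block, 116 genes were higher in siEXOSC3 and 11 in siDDX1. Nothing in the sources used here pairs the samples by number. Deviations of same-numbered libraries correlated at 0.23, -0.30 and -0.44, and siEXOSC3_2 went best with siDDX1_3 (0.54). These correlations cannot tell whether same-numbered libraries shared a batch. Of the named genes' values, 1574 kept their side of the threshold under an alternative, 398 lost the call and 6 gained one. With a call in either fit, 0 reversed direction. Changes of sign in genes called in neither fit are counted among the 1574. The causes of these moves were not tested. At an unadjusted p under 0.05, 3565 genes (31.6%) passed.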
